A study of Mus musculus with 2 samples.

Results

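The sterol regulatory element-binding protein (SREBP) program comprised 33 genes in this comparison, of 20706 genes that the arrays read with at least 1 probe set of their own. The members were chosen by name: 17 genes of the sterol branch, 11 genes of the fatty acid branch and 5 regulators shared by both. BMSC-Adipo and BMSC-Osteo are 2 spontaneously immortalized clonal lines of mouse bone marrow stromal cells, the former committed to adipocytes and the latter to osteoblasts, and the comparison asked how far their synthesis programs differed before differentiation. Both lines have the C57BL/6 background and the genotype Beta-actin-GFP+ ApoE(-/-), so neither could serve as a wild-type control. RNA was taken at day 0 in basal medium (12% FBS by the sample labels, 10% by the study's methods) with no adipogenic or osteogenic agent. Each line had 1 array, made from a pool of 3 cultures. Since neither line had a replicate array, the differences below carry no error and no p-value, and with 1 clone of each kind the lineage cannot be told apart from the clone.

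Values are the authors' deposited log2 levels, and a difference is the level in BMSC-Adipo minus that in BMSC-Osteo, so that 1 equals 2-fold. Each gene took its brightest probe set, and 14497 genes at or above the 30th percentile of brightness (a log2 level of 4.20) made up the background, with a median difference of -0.03. Probe sets of 1 gene had a pooled SD of 0.399, which describes probes and not replicate error. The labels matched the markers: *Adipoq*, the adipocyte hormone adiponectin, had 12.3 in BMSC-Adipo and 3.16 in BMSC-Osteo, and *Ibsp*, bone sialoprotein, had 4.49 and 11.8. The level of *Adipoq* in BMSC-Osteo was below the filter level. Of 7 adipocyte markers, 5 passed the filter, and these 5 were at least 2-fold higher in BMSC-Adipo. *Plin1* had no probe set of its own, and *Cidec* lay under the filter with 2.85 in BMSC-Adipo and 2.66 in BMSC-Osteo (0.19). Of 7 osteoblast markers 6 were at least 2-fold higher in BMSC-Osteo, *Runx2* (0.28) being the exception. Among leukocyte markers *Ptprc* lay under the filter at 2.56 in BMSC-Adipo and 2.78 in BMSC-Osteo, as did *Itgam* at 2.86 in each. Of 5 leukocyte markers 3 passed the filter and of 4 endothelial markers 2 did, with *Cd68* (5.40 and 3.99) alone past 2-fold by its brightest probe set. *Csf1r* (5.73 in BMSC-Adipo and 6.05 in BMSC-Osteo, -0.32) went the other way on all 3 of its probe sets, 1 of them reading -1.30. *Adgre1* had 4.22 and *Kdr* 5.71 in both lines, and the difference of *Cdh5* was -0.30. *Apoe* had 3.73 in BMSC-Adipo and 4.11 in BMSC-Osteo, both under the filter level, although where its probes lie relative to the disrupted part was not given in the sources used here.

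Cells make cholesterol from acetyl-CoA through mevalonate, squalene and lanosterol, and make fatty acids from the same precursor through malonyl-CoA. SREBP transcription factors switch on the enzymes of both routes. They are held in the endoplasmic reticulum by SCAP and the INSIG proteins when sterol is plentiful, and are cut and released in the Golgi when it is scarce. SREBP2 is known mainly for sterol genes, and SREBP1c, which insulin and the liver X receptors (LXR) induce, for fatty acid genes. Newly made fatty acids are lengthened by ELOVL enzymes and given double bonds by SCD and FADS desaturases, and adipocytes use them for triglyceride.

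All 33 members had at least 1 probe set, 79 in all, of which 71 passed the brightness filter, and the brightest probe set of every member passed it. None of the 79 was shared with another gene. Of the 33 members, 24 had a higher level in BMSC-Adipo and 9 in BMSC-Osteo, where 46.7% of all genes past the filter had a difference above 0 and 51.4% below 0. Most of these differences were small. Only *Elovl6* and *Scd1* (2 members) were at least 2-fold higher in BMSC-Adipo, against a background of 7.88% of all genes, and only *Fads2* (1 member) was at least 2-fold higher in BMSC-Osteo, against 6.68% (14.6% of all genes passed 2-fold in either direction). With a 1.5-fold rule, 9 members lay on the side of BMSC-Adipo (background 16.1%) and 1 on the side of BMSC-Osteo (background 14.5%). The median absolute difference was 0.36 over the members and 0.34 over all genes past the filter.

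**Figure D1:**
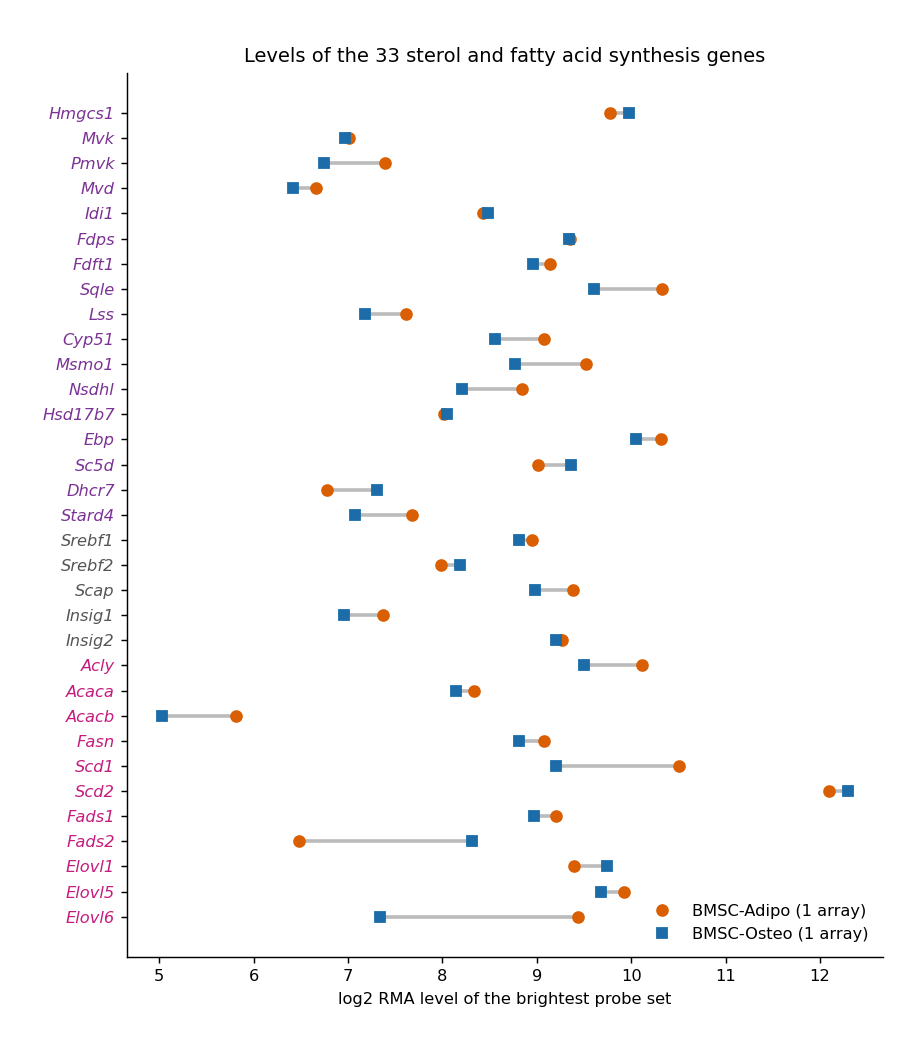
Log2 RMA level (x axis) of the brightest probe set of each of the 33 members in BMSC-Adipo (circles) and BMSC-Osteo (squares), 1 array each, with gene names coloured by branch (purple sterol, grey regulators, pink fatty acid). The circle and the square lie far apart only for Elovl6 (9.43 and 7.34), Fads2 (6.48 and 8.32) and Scd1 (10.5 and 9.20).

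The sterol branch had no member past 2-fold. All 17 lay within 2-fold, as did 12386 of all 14497 genes past the filter. They ranged from -0.53 for *Dhcr7* to 0.76 for *Msmo1*, with a median of 0.24. The median absolute difference was 0.36, against 0.34 for all genes. Of the 17, 12 were higher in BMSC-Adipo and 5 in BMSC-Osteo (46.7% and 51.4% of all genes). With a 1.5-fold rule, 5 lay on the side of BMSC-Adipo (background 16.1%) and 0 on that of BMSC-Osteo (background 14.5%).

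The 6 enzymes of the mevalonate steps had a median difference of 0.03. *Hmgcs1*, which condenses acetoacetyl-CoA into HMG-CoA, had a level of 9.78 in BMSC-Adipo and 9.97 in BMSC-Osteo (-0.19), and its 4 probe sets past the filter ranged from -0.20 to -0.06. The mevalonate kinase *Mvk* had 7.01 and 6.97 (0.04). *Idi1*, the isopentenyl diphosphate isomerase, had 8.43 and 8.48 (-0.05), and *Fdps*, which makes farnesyl diphosphate, had 9.36 and 9.34 (0.01). These 4 genes differed by less than the spread between probe sets. *Pmvk*, the phosphomevalonate kinase, stood out from them with 7.39 in BMSC-Adipo and 6.74 in BMSC-Osteo (0.64, or 1.56-fold), on a single probe set. *Mvd*, the decarboxylase that follows it, had 6.67 and 6.42 (0.24). *Mvd* is on chromosome 8, whose genes past the filter had a median difference of 0.41, and relative to that median it was lower in BMSC-Adipo (-0.16).

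The 3 enzymes of the squalene steps had a median difference of 0.44. All 3 had higher levels in BMSC-Adipo by their brightest probe sets, as did 46.7% of all genes past the filter. *Sqle*, the squalene epoxidase and a rate-limiting step of the route, had a level of 10.3 in BMSC-Adipo and 9.61 in BMSC-Osteo (0.72, 1.64-fold). *Sqle* has only 1 probe set. *Lss*, which closes the ring to give lanosterol, had 7.61 and 7.18 (0.44), with its other probe sets at 0.72 and -0.21. *Fdft1*, squalene synthase, had 9.14 and 8.96 (0.18). Its 2 bright probe sets lay at 0.18 and 0.15 and its 2 dim ones at -0.04 and -0.60, so that only the bright pair shared the direction.

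The enzymes that turn lanosterol into cholesterol did not share 1 direction. Most of the demethylation enzymes had higher levels in BMSC-Adipo. *Cyp51*, the lanosterol demethylase, had 9.07 in BMSC-Adipo and 8.56 in BMSC-Osteo (0.51), and all 3 of its probe sets were positive (0.30 to 0.69). *Msmo1*, the methylsterol monooxygenase, had 9.52 and 8.77 (0.76, 1.69-fold), the largest difference of the branch. Its other probe set lay under the filter, at 3.02 in both lines. *Nsdhl*, the dehydrogenase that acts with *Msmo1*, had 8.84 and 8.21 (0.64, 1.56-fold) on 1 probe set. *Hsd17b7*, the ketoreductase of the same complex, had 8.01 and 8.05 (-0.04) and did not share the direction. *Msmo1* is on chromosome 8 as well, and its difference was 0.35 relative to that chromosome's median. Members on other chromosomes also shifted when their chromosome's median was subtracted. *Hmgcs1* went from -0.19 to 0.04, *Idi1* from -0.05 to 0.19, *Elovl1* from -0.36 to -0.04 and *Stard4* from 0.60 to 0.96. The part of chromosome-wide shifts in these differences was not tested.

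The last enzymes leaned less to one side. *Ebp*, the sterol isomerase, had a level of 10.3 in BMSC-Adipo and 10.0 in BMSC-Osteo (0.27). *Sc5d*, the lathosterol desaturase, had 9.01 and 9.37 (-0.36), but its other probe sets read 0.31 and 0.27, and the mean of its probe sets was 0.08. *Dhcr7*, which reduces 7-dehydrocholesterol to cholesterol, had 6.77 and 7.31 (-0.53, or 1.45-fold higher in BMSC-Osteo), on 1 probe set. *Stard4*, a carrier that moves cholesterol between membranes, had 7.68 in BMSC-Adipo and 7.07 in BMSC-Osteo (0.60), and its 3 probe sets all pointed the same way (0.28 to 0.83).

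**Figure D2:**
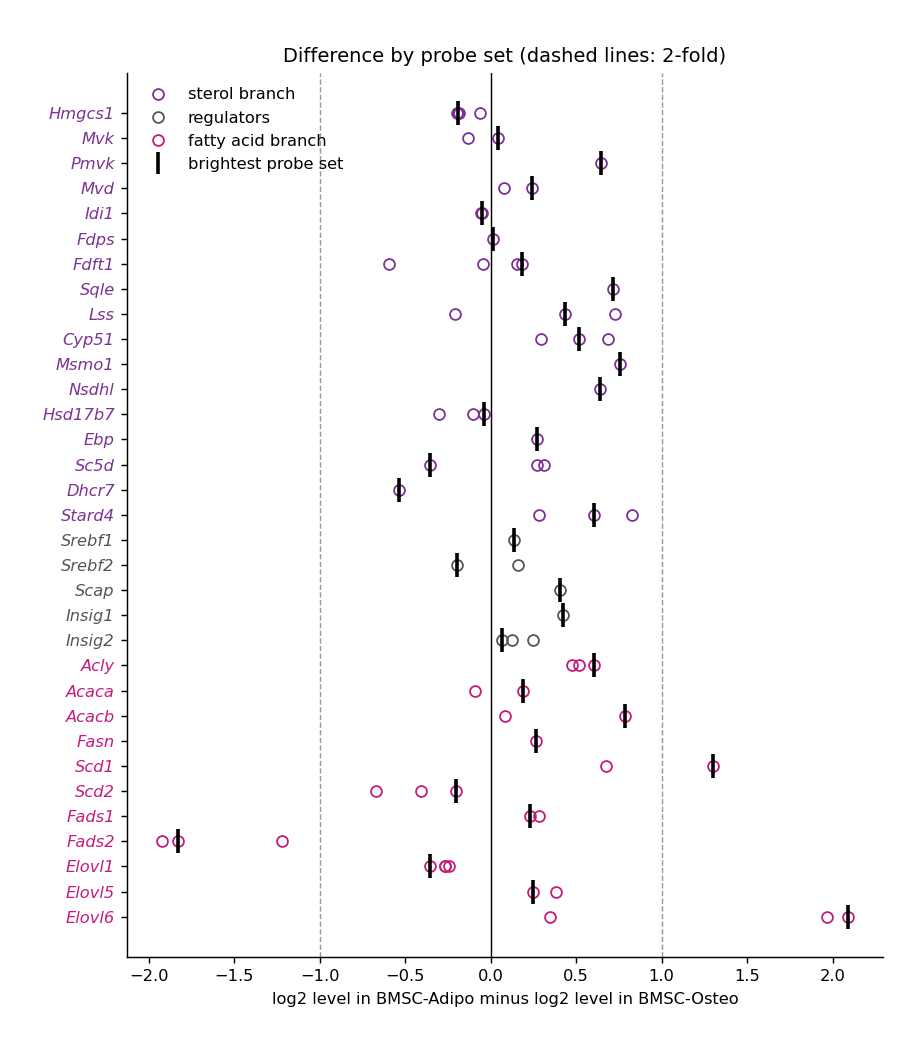
Difference in log2 level, BMSC-Adipo minus BMSC-Osteo (x axis), of every probe set past the brightness filter (open circles) for each member, with the brightest probe set marked by a bar and 2-fold marked by dashed lines. All circles of Fads2 lie to the left of -1, 2 of the 3 circles of Elovl6 lie near 2, and no bar of the sterol branch crosses a dashed line.

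Of the 22 members with several probe sets past the filter, 16 had the same sign on all of them and 6 did not. The signs were mixed for 4 of 10 such members of the sterol branch (*Mvk*, *Fdft1*, *Lss* and *Sc5d*), for 1 of 10 of the fatty acid branch (*Acaca*) and for the regulator *Srebf2*. How often signs are mixed among genes outside the program was not counted. Whether the members, or either branch, depart from that background was therefore not tested.

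The windows around the gene starts were searched for short motifs. The members were listed as genes driven by SREBP, so motifs of SREBP and its partners are not independent of that choice. RefSeq windows of assembly GRCm38.p6, which run from 250 bases before to 50 bases after a gene's start, matched 26 of the 33 members, 13 of them in the sterol branch. *Scd1*, *Scd2*, *Fads1*, *Fdps*, *Fdft1*, *Sqle* and *Stard4* had none in the table. The 4 short motifs searched on both strands were TCACNCCAC as a core of the sterol regulatory element (SRE), CCAAT, to which NF-Y binds, GGGCGG, to which Sp1 binds, and the E-box CACGTG. NF-Y and Sp1 are known partners of SREBP at its target promoters. All 13 sterol genes with a window had a CCAAT match, against 42.6% of the 10919 genes past the filter that had a window and 41.1% of all 27025 genes with one. Counted by window, since some genes have several, 13 of 16 sterol windows (81.2%) had CCAAT, against 37.4% of all windows. GGGCGG was present in 12 of the 13 sterol genes (92.3%) and in 66.0% of the genes past the filter. CACGTG was present in 3 of 13 (23.1%) against 11.4%. The exact SRE core was rare: among the members *Hmgcs1* alone had it (1 of 26, 3.85%), against 1.41% of the genes past the filter. With 1 mismatch allowed, 12 of 26 members (46.2%) had it, against 29.0%. A match is a string of letters and not a measured binding site.

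Sequences upstream of 3 sterol genes are given because they carry these matches: *Hmgcs1* as the only member with the exact SRE core, and *Msmo1* and *Nsdhl* as sterol enzymes at least 1.5-fold higher in BMSC-Adipo with a single window. They are shown 5′ to 3′ on the gene's strand and end at the base before the start, with matches to the 4 motifs in capitals (ATTGG and CCGCCC are CCAAT and GGGCGG on the opposite strand). The *Hmgcs1* stretch is chr13:119690101-119690350, plus strand, 250 bases long. Its SRE core begins at position -137, counted from the start.
Hmgcs1: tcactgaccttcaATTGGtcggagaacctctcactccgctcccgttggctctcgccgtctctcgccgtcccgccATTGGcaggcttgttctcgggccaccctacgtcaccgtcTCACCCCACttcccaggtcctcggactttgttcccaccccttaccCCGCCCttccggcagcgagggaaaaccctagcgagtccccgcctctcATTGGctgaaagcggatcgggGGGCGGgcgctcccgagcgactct
The *Msmo1* stretch is chr8:64733579-64733698, minus strand, and that of *Nsdhl* is chrX:72918401-72918520, plus strand, each 120 bases long. In *Msmo1* the CCAAT matches shown begin at -96 and -55, with 2 GGGCGG matches between them at -73 and -62, and another CCAAT at -160 lies outside the stretch. In *Nsdhl* they begin at -109 and -20, with 1 GGGCGG match between them at -52.
Msmo1: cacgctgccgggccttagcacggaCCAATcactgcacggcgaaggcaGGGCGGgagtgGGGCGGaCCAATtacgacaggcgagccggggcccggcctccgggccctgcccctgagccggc
Nsdhl: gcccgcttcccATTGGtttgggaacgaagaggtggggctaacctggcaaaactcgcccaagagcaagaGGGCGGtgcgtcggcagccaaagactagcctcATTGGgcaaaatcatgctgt
The 3 genes share CCAAT and GGGCGG, as do most sterol genes with a window (CCAAT in 13 of 13, GGGCGG in 12 of 13). Between the lines *Hmgcs1* differed by -0.19 and *Msmo1* and *Nsdhl* by 0.76 and 0.64. Whether the motifs bear on these differences was not tested.

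**Figure D3:**
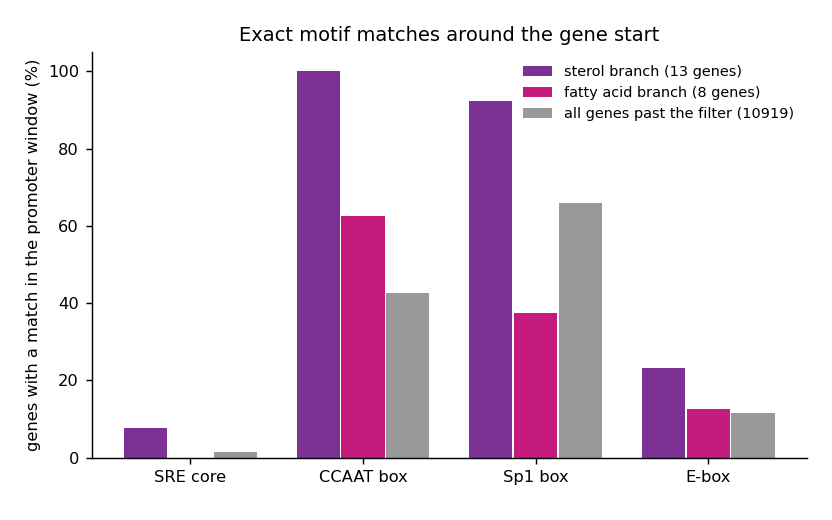
Percent of genes (y axis) with an exact match to each motif (x axis) in the window from 250 bases before to 50 bases after the start, for the sterol branch (purple, 13 genes), the fatty acid branch (pink, 8 genes) and all genes past the brightness filter (grey, 10919 genes). CCAAT is found in all 13 genes of the sterol branch, in 62.5% of the fatty acid branch and in 42.6% of all genes past the filter.

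The 5 regulators differed little. *Srebf1*, which encodes SREBP1, had a level of 8.95 in BMSC-Adipo and 8.81 in BMSC-Osteo (0.14), and which of its transcripts the single probe set reads was not given in the sources used here. *Srebf2*, which encodes SREBP2, had 7.99 and 8.19 (-0.20), while its other probe set read 0.16. Both differences were smaller than the spread between probe sets. *Scap*, the escort of SREBP to the Golgi, had 9.39 and 8.98 (0.40). *Insig1*, a retention factor that is itself an SREBP target, had 7.38 and 6.96 (0.42), and *Insig2* had 9.27 and 9.21 (0.07). RNA levels of these genes do not show how much SREBP was cut and active.

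The fatty acid branch had a median of 0.25, close to that of the sterol branch, but a wider range, from -1.83 to 2.09. All 4 genes of the synthesis steps were higher in BMSC-Adipo by their brightest probe sets and within 2-fold. Of all genes past the filter, 46.7% had a difference above 0, and 12386 of 14497 lay within 2-fold. *Acly*, the ATP citrate lyase that supplies cytosolic acetyl-CoA, had 10.1 in BMSC-Adipo and 9.51 in BMSC-Osteo (0.61, 1.52-fold), with its 3 probe sets past the filter between 0.48 and 0.61. *Acaca*, acetyl-CoA carboxylase 1, had 8.34 and 8.15 (0.19), and its other probe set read -0.09. *Fasn*, fatty acid synthase, had 9.08 and 8.81 (0.26) on 1 probe set. The differences of *Acaca* and *Fasn* were smaller than the spread between probe sets (0.399). *Acacb*, the mitochondrial carboxylase whose malonyl-CoA restrains fatty acid oxidation, had 5.81 and 5.03 (0.78, 1.72-fold), although its second, dimmer probe set read 0.08. By their brightest probe sets *Acly*, *Acaca* and *Fasn* thus differed by 1.14-fold to 1.52-fold, and *Acacb* by 1.72-fold.

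*Elovl6*, which elongates palmitate to stearate, showed the largest difference of all members toward BMSC-Adipo. Its brightest probe set had a level of 9.43 in BMSC-Adipo and 7.34 in BMSC-Osteo, a difference of 2.09 (4.26-fold) that 2.10% of all genes past the filter reached. A second probe set had 8.67 and 6.70 (1.97), and the dimmest, close to the filter level, had 4.55 and 4.20 (0.35). Both bright probe sets read close to 4-fold, and the mean of all 3 differences was 1.47. The other elongases were near even. *Elovl5*, which elongates polyunsaturated fatty acids, had 9.93 and 9.68 (0.25), and *Elovl1*, which elongates very long saturated chains, had 9.39 and 9.75 (-0.36), with all 4 of its probe sets between -0.36 and -0.24. Within the arrays the difference of *Elovl6* exceeded that of *Elovl5* by 1.85 and that of *Elovl1* by 2.45.

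*Scd1*, the stearoyl-CoA desaturase that makes oleate from stearate, was the other gene on this side. It had 10.5 in BMSC-Adipo and 9.20 in BMSC-Osteo (1.30, 2.47-fold), a difference that 4.97% of all genes past the filter reached. Its second probe set had 7.60 and 6.92 (0.67), under 2-fold. *Scd2*, a paralog that acts on the same kind of substrate, did not share the direction: it had 12.1 and 12.3 (-0.20), and its 3 probe sets all read lower in BMSC-Adipo, from -0.67 to -0.20. Both paralogs are on chromosome 19, and their differences were 1.505 apart.

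*Fads2*, the delta-6 desaturase that opens the route from essential fatty acids to polyunsaturated ones, was the only member at least 2-fold higher in BMSC-Osteo. Its level was 6.48 in BMSC-Adipo and 8.32 in BMSC-Osteo (-1.83, or 3.56-fold higher in BMSC-Osteo), and 2.43% of all genes past the filter had a difference as low. The other probe sets had 6.10 and 8.02 (-1.92), and 5.28 and 6.50 (-1.22), so that all 3 passed 2-fold. *Fads1*, the delta-5 desaturase that acts later in the same route, had 9.20 in BMSC-Adipo and 8.97 in BMSC-Osteo (0.23). The differences of *Fads1* and *Fads2* were 2.06 apart.

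**Figure D4:**
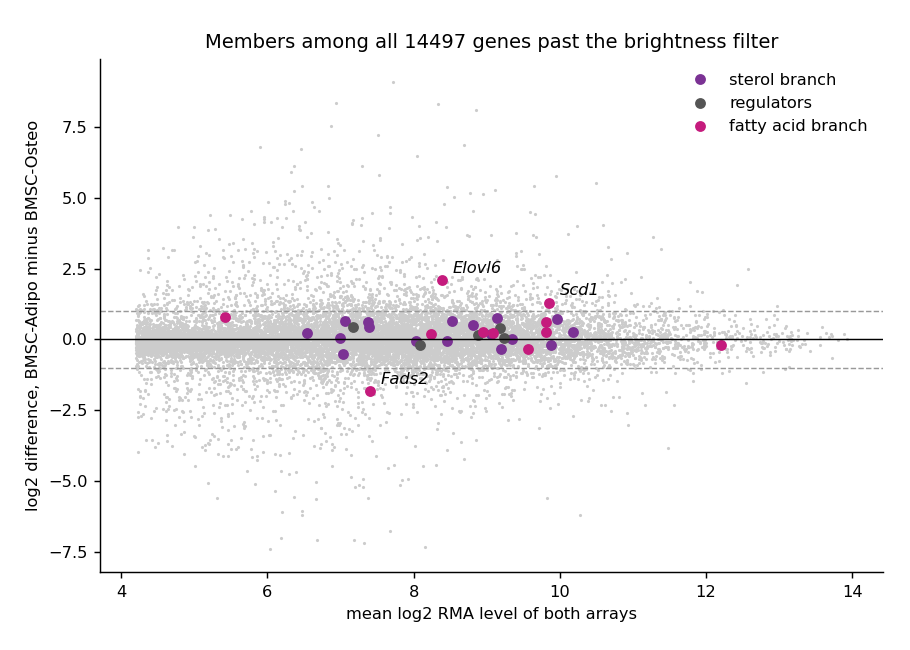
Difference in log2 level, BMSC-Adipo minus BMSC-Osteo (y axis), against the mean log2 level of both arrays (x axis) for all 14497 genes past the filter (grey points), with the members of the sterol branch (purple), the fatty acid branch (pink) and the regulators (dark grey). Of the members, only Elovl6 (2.09), Scd1 (1.30) and Fads2 (-1.83) lie outside the dashed 2-fold lines, as do 14.6% of all genes past the filter.

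The genes beside these 3 members on the chromosome differed in both directions. In RefSeq order, taking genes past the filter, *Fads2* lies between *Fads3* (9.39 in BMSC-Adipo, 10.5 in BMSC-Osteo, -1.15) and *Fads1*, and next beyond them *Rab3il1* had a difference of 0.88 and *Fen1* of -0.12. *Scd1* lies between *Scd2* and *Ndufb8* (0.39) in this order, which leaves out *Scd4*, a gene between *Scd2* and *Scd1* for which no probe set was matched. *Elovl6* lies next to *Enpep*, an aminopeptidase gene with a level of 11.1 in BMSC-Adipo and 2.76 in BMSC-Osteo (8.35). The level of *Enpep* in BMSC-Osteo was below the filter cutoff. On the other side of *Elovl6*, *Rrh* (-0.19), *Gar1* (-0.71) and *Pla2g12a* (-0.30) had lower values in BMSC-Adipo. The median differences of chromosome 3, which holds *Elovl6*, and of chromosome 19, which holds the 4 desaturase genes, were 0.08 and 0.06. The values of the 3 genes relative to their chromosome therefore stayed past 2-fold.

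The upstream sequences of *Elovl6* and *Fads2* are shown because these genes had the largest differences, in opposite directions, and that of *Fasn* as the synthase of the branch. *Fasn* had 3 CCAAT matches, 2 of which overlap as CCAATTGG, which reads CCAAT on each strand. *Elovl6* had no exact match to any of the 4 motifs in its window, and *Fads2* had 1 GGGCGG match. Each stretch is the 250 bases before the start: chr11:120824548-120824797, minus strand for *Fasn*, chr3:129532136-129532385, plus strand for *Elovl6* and chr19:10101504-10101753, minus strand for *Fads2*.
Fasn: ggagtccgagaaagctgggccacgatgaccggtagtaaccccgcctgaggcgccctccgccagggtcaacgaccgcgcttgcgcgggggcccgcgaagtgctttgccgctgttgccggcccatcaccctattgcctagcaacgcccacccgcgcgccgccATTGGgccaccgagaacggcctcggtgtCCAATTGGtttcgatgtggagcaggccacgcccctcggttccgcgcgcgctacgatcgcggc
Elovl6: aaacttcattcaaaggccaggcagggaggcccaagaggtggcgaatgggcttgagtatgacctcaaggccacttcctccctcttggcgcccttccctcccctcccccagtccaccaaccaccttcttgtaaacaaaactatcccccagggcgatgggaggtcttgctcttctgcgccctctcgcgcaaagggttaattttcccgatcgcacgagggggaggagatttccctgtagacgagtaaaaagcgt
Fads2: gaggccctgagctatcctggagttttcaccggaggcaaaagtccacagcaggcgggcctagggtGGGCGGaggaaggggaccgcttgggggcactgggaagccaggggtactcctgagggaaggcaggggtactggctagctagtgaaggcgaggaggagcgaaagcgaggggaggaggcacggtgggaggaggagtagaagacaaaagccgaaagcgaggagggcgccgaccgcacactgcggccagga
Of the 8 fatty acid genes with a window, 5 (62.5%) had CCAAT and 3 (37.5%) had GGGCGG, the latter share below the 66.0% of genes past the filter.

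Other genes of these routes, listed by function, were read in the same way. Of 62 such genes, 55 passed the filter, with 6 at least 2-fold higher in BMSC-Adipo (7.88% of all genes past the filter) and 7 in BMSC-Osteo (6.68% of all genes). The median of these 55 was 0.10. The median absolute difference was 0.64, against 0.36 for the members.

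Of 7 measured genes of other sterol synthesis steps, 1 was at least 2-fold higher in BMSC-Osteo (6.68% of all genes) and none in BMSC-Adipo (7.88%). Their median was 0.17. *Tm7sf2*, a sterol reductase, lay just under the rule toward BMSC-Adipo, with 7.60 and 6.61 (0.99). The thiolase *Acat2* was read only by probe sets shared with *Tcp1* (0.89) and *Acat3* (0.75). Of 8 genes for SREBP processing and degradation, *Paqr3*, which encodes a Golgi anchor of the SCAP-SREBP complex, had 4.29 in BMSC-Adipo and 6.15 in BMSC-Osteo (-1.86). *Paqr3* has only 1 probe set, and its level in BMSC-Adipo was close to the filter level of 4.20. The site-1 protease *Mbtps1* (0.20) and the site-2 protease *Mbtps2* (0.16), which cut SREBP, were near even by their brightest probe sets. Another probe set of *Mbtps1* read -0.11, and one that *Mbtps2* shares with *Yy2* read -0.85.

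Sterol handling outside synthesis had wider differences by brightest probe sets. The median absolute difference was 0.83 for uptake and lysosomal export and 1.53 for esterification, oxysterols and LXR, against 0.36 for the sterol branch. At least 2-fold higher in BMSC-Adipo were 2 of 9 and 3 of 10 genes (7.88% of all genes). In BMSC-Osteo 1 of 9 and 2 of 10 were (6.68%). The lists were chosen with earlier results of these data known. Of 9 genes of uptake and lysosomal export past the filter, *Lrp1*, an endocytic lipoprotein receptor, had 10.9 in BMSC-Adipo and 9.51 in BMSC-Osteo (1.43, its other probe set 2.02), and *Lipa*, lysosomal acid lipase, had 8.74 and 7.73 (1.02, other probe sets 0.73 and 0.62). *Tmem97*, a sterol-regulated membrane protein, had 6.78 and 8.25 (-1.47) on 1 probe set. Among 10 genes of esterification, oxysterols and LXR, *Nr1h3*, which encodes LXR alpha, had 7.77 in BMSC-Adipo and 4.76 in BMSC-Osteo (3.00). *Nr1h3* has only 1 probe set. The cholesterol exporters *Abca1* and *Abcg1*, known LXR targets, were higher on the same side, with 9.42 and 6.50 for *Abca1* (2.92) and 7.57 and 4.70 for *Abcg1* (2.87). All 3 probe sets of *Abca1* lay between 2.55 and 2.92, and the other probe set of *Abcg1* read 1.23. *Srebf1*, whose SREBP1c form LXR also induces, differed by 0.14. LXR activity was not tested. *Cyp7b1*, an oxysterol hydroxylase, had 2.81 in BMSC-Adipo and 6.57 in BMSC-Osteo (-3.76), and the acyltransferase *Soat2* had 4.03 and 6.14 (-2.11) on 1 probe set. Both had levels below the filter cutoff in BMSC-Adipo.

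**Figure D5:**
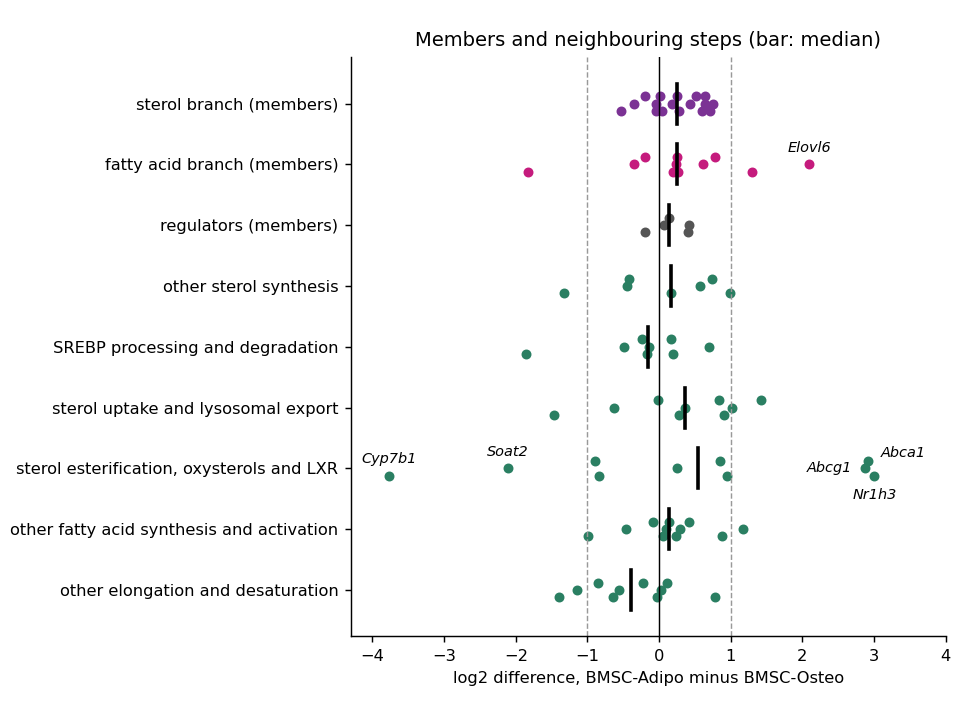
Difference in log2 level, BMSC-Adipo minus BMSC-Osteo (x axis), of each gene past the filter (points, spread vertically only for legibility) in the 3 groups of members and the 6 lists of neighbouring steps (y axis), with the median of each as a black bar and 2-fold as dashed lines. The sterol branch stays within 2-fold, while Nr1h3, Abca1 and Abcg1 lie near 3 and Cyp7b1 lies at -3.76.

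Around the fatty acid branch, *Acsl1*, a long-chain acyl-CoA synthetase, had 9.88 in BMSC-Adipo and 8.70 in BMSC-Osteo (1.18), with 1 probe set in the other direction (-0.45). *Me1*, the malic enzyme that supplies NADPH for synthesis, had 9.45 and 10.4 (-0.99), just under the 2-fold rule toward BMSC-Osteo. Of 10 other elongation and desaturation genes past the filter, 7 were higher in BMSC-Osteo, as were 51.4% of all genes past the filter. Their median was -0.40, and it was -0.13 without the filter. *Fads3* passed 2-fold (-1.15), and its 3 probe sets lay between -1.19 and -0.55. *Elovl4*, which makes very long chains, had 3.71 in BMSC-Adipo and 5.11 in BMSC-Osteo (-1.40), with a second probe set at -1.90. Its level in BMSC-Adipo was below the filter cutoff. Of the elongation and desaturation genes in both lists, those at least 2-fold higher in BMSC-Adipo were *Elovl6* and *Scd1*, and those at least 2-fold higher in BMSC-Osteo were *Fads2*, *Fads3* and *Elovl4*.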

How the data were processed

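RNA of 2 cell lines (8 ug each) was hybridised to Affymetrix arrays, 1 per line. The authors deposited log2 levels of 45101 probe sets, made with the RMA method of the oligo package (background correction, normalization across arrays, summary of probes). The sources used here give no version, detection call or genome build. The deposited table also holds the authors' log2 fold changes, which were not used, and the series matrix held the same levels (largest gap 0). Of the probe sets, 64 controls, 5368 without a gene and 1479 naming several genes were left out, which left 38190. Each gene took its brightest probe set, and genes under the 30th percentile were dropped. RefSeq gene IDs gave a chromosome for 94.7% of genes past the filter and promoter windows for 26 members. Members and lists were chosen with earlier results of these data known. All members were named, and of each other list those past 2-fold. *Tm7sf2*, *Me1*, *Acat2*, the SREBP proteases, *Cd68*, *Csf1r*, *Adgre1*, *Kdr*, *Cdh5*, *Cidec*, *Plin1* and neighbouring genes were named after their values were seen. The rule also names single genes left unreported here, which stay in all counts and medians. Depth does not apply to arrays, and their number limits the precision. List medians carry no test. Python 3.11.15 ran with numpy 2.4.6, pandas 2.3.3, statsmodels 0.14.6 (loess) and matplotlib 3.10.9 (plots). Alternatives changed the probe set, the filter, the scaling and the size rule.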

Additional observations from a re-analysis of the deposited data

How the results depend on the processing

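Shifts were judged for a gene against 0.399, the SD between probe sets, for a median against that SD divided by the root of its number of genes, and for a count against 1.5 times. No paired analysis was possible because each line had 1 array. *Elovl6* ranged from 0.35 to 2.12, *Scd1* from 0.67 to 1.33 and *Fads2* from -1.92 to -1.22 over all settings, without a change of sign. The count of members at least 2-fold higher in BMSC-Adipo, 2, became 1 when probe sets were averaged (1.47 for *Elovl6*, with *Scd1* under 2-fold), 0 with the lowest probe set, 9 with a 1.5-fold rule and 1 with a 4-fold rule, and that in BMSC-Osteo, 1, became 0 with a 4-fold rule. The medians of the fatty acid branch and the regulators stayed within that limit under the alternatives run. The sterol branch moved only with the lowest probe sets, to 0.013. The lowest probe sets also gave 0.020 for uptake and lysosomal export and 0.20 for esterification, oxysterols and LXR, and the highest turned processing and degradation from -0.16 to 0.012. Plain _at probe sets turned other sterol synthesis from 0.17 to -0.14 and gave 0.54 for uptake, 0.25 for esterification and -0.23 for other elongation and desaturation. Shared probe sets gave 0.37 for other sterol synthesis, and means of probe sets gave 0.17 for uptake and 0.30 for esterification. For other elongation and desaturation, no filter gave -0.13, a filter at the 50th percentile -0.56 and an offset of 32 on the linear scale -0.24. The same filter and offset gave 0.95 and 0.40 for esterification. The SRE core was in 3.85% of members exactly and in 46.2% with 1 mismatch. With 1 array per line, signal precision could not be estimated from repeats. The cause of these shifts was not tested beyond the change of probe sets or genes that each setting makes.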
